A study of Mus musculus with 25 samples.

Results

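The 45 genes described here encode the proteins that license origins of replication and build the replication fork. They were chosen by symbol, from a list that holds the origin recognition complex, the MCM loading factors, the MCM helicase and its activators, the replicative polymerases and primase, the sliding clamp and its loader, RPA, the enzymes that finish the lagging strand and chromatin assembly factor 1. All 45 were among the 15315 genes of the long-term experiment, and 44 were among the 14007 genes of the short-term experiment, in which *Pola1* was not analysed here.

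RNA was sequenced from pituitaries of sh*Rb* mice, in which doxycycline (dox) induces one shRNA against *Rb1* (shRb5) linked to GFP. The long-term experiment compared 3 mice after 6 weeks on dox (6w+dox, all female), 4 mice after 12 weeks on dox (12w+dox, 2 female and 2 male) and 5 mice taken off dox after 6 weeks and kept without it for another 6 weeks (12w-res, 3 female and 2 male). The short-term experiment compared 3 male mice after 16 weeks on dox (16w+dox) with mice taken 1 day (1d-dox, 4 female), 3 days (3d-dox, 3 male) or 5 days (5d-dox, 3 female) after dox was removed. Every mouse carried the inducible alleles and had been on dox, so no group shows a pituitary that never lost RB. Dox was given in drinking water with sucrose, which was left out when dox was removed. Groups on and off dox therefore differ in dox, sucrose and shRNA together, and these cannot be told apart. The dox-dependent activator is expressed from the Rosa26 locus, which is active in most cell types, the shRNA is not restricted to the pituitary, and the line comes from 1 embryonic stem cell clone. The shRb5 target, shown because the groups differ in how long it was targeted, lies at chr14:73206076-73206096 (GRCm38, minus strand), within the coding part of exon 22 of the 27 exons of *Rb1*.
shRb5 target: gaggagtttgattccattata

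Replication is prepared in G1, when the origin recognition complex, CDC6 and CDT1 load the MCM helicase onto DNA as an inactive ring. In S phase the kinase CDC7 with DBF4, and the factors MCM10, CDC45 and GINS, turn the ring into a moving helicase, which the polymerases follow. Many of these genes are textbook targets of the E2F transcription factors, which RB holds in check, and their transcripts are abundant in cycling cells and low in resting endocrine cells.

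Values are given in FPM, fragments scaled by size factors to a common depth, and differences as log2 fold changes with their standard error (SE) from limma on log2(FPM + 0.5), adjusted for all genes tested. A gene was called when its adjusted p was under 0.05 and its log2 fold change was over 1 in size. The libraries held 19066053 to 28968476 reads on genes in the long-term and 9573101 to 13036900 in the short-term experiment. *Rb1* was at 1.86 to 5.09 FPM in the 7 long-term mice on dox and at 16.1 to 20.3 FPM in 12w-res. In the short-term experiment, GFP was at 1025 to 1360 FPM in 16w+dox and at 9.34 to 15.2 FPM in 5d-dox, while *Rb1* was at 3.47 to 4.89 FPM and at 4.92 to 5.38 FPM. The transcripts of *Pomc*, *Gh* and *Prl*, which mark hormone cells of the pituitary, were found in every mouse.

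The 37 genes with a RefSeq promoter window (GRCm38.p6, 250 bases before to 50 after a start) were searched on both strands for the E2F letters TTTCCCGC, TTTCGCGC, TTTGCCGC and TTTGGCGC. A match was found for 15 of the 37 (40.5%), for 2.6% of the 27025 genes with a window and for 4.45% of the 11536 such genes of the long-term table. The letters TTTGAA of the cell cycle homology region were found for 7 (18.9%, against 20.2% of all genes and 14.01% of those of the long-term table), and CCAAT for 22 (59.5%, against 41.1% and 42.3%). A match is a description of the letters in the window. Shown, with the E2F letters in capitals, are upstream stretches of 4 genes called lower in 12w-res against 12w+dox (*Cdc6*, *Mcm5*, *Mcm6* and *Pola1*). Stretches of 2 genes that were not called follow (*Orc3* and *Gins3*), of which *Gins3* was lower by less than the minimum fold (-0.67). In *Mcm5* and in *Mcm6* a pair of matches on opposite strands overlaps and forms 1 run of capitals, and *Mcm6* has another match nearer to the start. The stretches are chr11:98907991-98908070 (plus strand, *Cdc6*), chr8:75109329-75109448 (plus, *Mcm5*), chr1:128359736-128359835 (minus, *Mcm6*), chrX:93632256-93632315 (minus, *Pola1*), chr4:34614965-34614994 (minus, *Orc3*) and chr8:95633507-95633536 (plus, *Gins3*). In GENCODE vM21 the *Cdc6* stretch lies in the first intron of a longer transcript, the *Orc3* stretch overlaps the first exon of the opposite gene *Rars2*, and the *Gins3* stretch lies in the first exon of a longer *Gins3* transcript.
Cdc6: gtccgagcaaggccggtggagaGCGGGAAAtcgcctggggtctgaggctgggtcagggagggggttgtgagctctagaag
Mcm5: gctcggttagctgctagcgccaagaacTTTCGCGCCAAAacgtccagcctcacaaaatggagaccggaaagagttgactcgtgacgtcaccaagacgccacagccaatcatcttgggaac
Mcm6: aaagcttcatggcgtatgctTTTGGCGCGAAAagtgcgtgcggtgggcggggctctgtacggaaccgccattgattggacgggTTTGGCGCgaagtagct
Pola1: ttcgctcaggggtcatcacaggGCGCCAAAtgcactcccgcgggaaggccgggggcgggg
Orc3: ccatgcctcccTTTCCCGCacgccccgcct
Gins3: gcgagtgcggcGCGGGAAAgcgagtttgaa

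Comparing 12w-res with 12w+dox asks what 6 weeks without dox left of the replication program at the same total time. The replication genes fell together. Of the 45, 32 (71.1%) were called lower and 0 higher by limma, where 5.04% of all genes were called lower and 6.24% higher. At an adjusted p under 0.05 alone, 42 were lower and 0 higher, against 18.3% and 19.4% of all genes, and 0 were higher at an unadjusted p under 0.05, against 24.3% of all genes. In 41 of the 45, every 12w-res mouse was below every 12w+dox mouse, against 17.4% of all genes. The median log2 fold change was -1.63 over the 45 genes and -0.0040 over all genes, and the single genes ranged from -3.49 (*Chaf1b*) to 0.16 (*Orc5*). DESeq2 and edgeR on the recovered reads each called 35 lower and 0 higher, with *Orc1*, *Rfc3* and *Rpa3* added to the 32 of limma. In whole pituitaries, fewer cells of a type and less RNA per cell cannot be told apart.

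The size of the difference depended on how libraries were scaled. *Pomc* alone held 39.1% to 43.2% of gene reads in the restored mice and 12.9% to 23.0% in 12w+dox. Scaled by total reads, the median of all genes moved to -0.61 and that of the replication genes to -2.23, so that the distance between the medians was -1.63 under either scaling. With totals 42 of the 45 were called lower, and 93.2% of all calls were lower, against 44.7% with size factors. All values below use the deposited size factors.

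**Figure D1:**
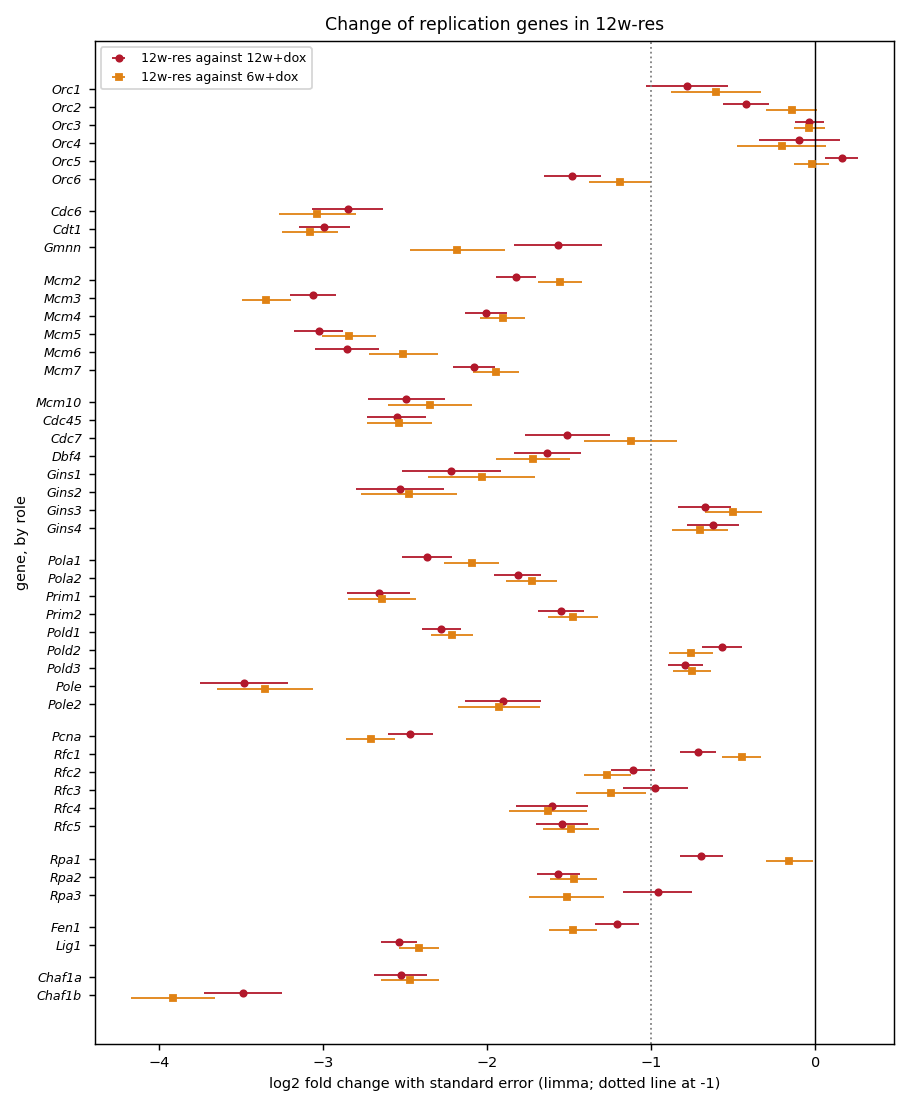
Log2 fold change with SE (limma) of the 45 genes, ordered by role, in 12w-res against 12w+dox (circles) and against 6w+dox (squares), with a dotted line at -1. *Chaf1b* lies farthest to the left in both comparisons, and 5 of the 6 origin recognition genes lie between -1 and 0.16.

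The origin recognition complex marks origins throughout the cell cycle and is the platform on which MCM rings are loaded. Of its 6 subunit genes 1 was called lower by limma (*Orc6*) and 5 were not called. *Orc3* was at 49.3, 52.5, 52.0 and 54.0 FPM in 12w+dox and at 46.7, 49.3, 55.8, 49.8 and 51.8 FPM in 12w-res, a log2 fold change of -0.04 ± 0.09 (SE, adjusted p = 0.766). *Orc5* was at 24.0, 22.3, 24.5 and 22.4 FPM in 12w+dox and at 26.4, 26.6, 25.9, 24.2 and 27.3 FPM in 12w-res (0.16 ± 0.10, adjusted p = 0.220). The groups overlapped for both genes, and *Orc5* was the only one of the 45 with a positive value, which turned to -0.49 when libraries were scaled by total reads. *Orc4* was at 20.1, 20.8, 31.3 and 20.2 FPM in 12w+dox and at 14.7, 21.0, 26.4, 20.2 and 25.8 FPM in 12w-res (-0.10 ± 0.25, adjusted p = 0.784). The highest and the lowest of these 9 mice each set the sign of *Orc4*: the value was 0.05 without the third 12w+dox mouse and 0.03 without the first 12w-res mouse.

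*Orc6*, the small subunit that is the least tightly bound to the complex, was the only subunit gene called by limma. It was at 24.0, 29.5, 42.9 and 25.2 FPM in 12w+dox and at 9.15, 10.7, 13.7, 9.21 and 9.23 FPM in 12w-res (-1.48 ± 0.17, adjusted p = 2.07e-05). All 5 restored mice were below all 4 mice on dox. *Orc1*, the subunit whose protein rises and falls with the cell cycle, had the lowest level of all 45 genes per kilobase of transcript (0.645 FPM per kb in 12w+dox) and changed by -0.78 ± 0.25 (adjusted p = 0.0246). *Orc2* changed by -0.42 ± 0.14 (adjusted p = 0.0310), and both passed the adjusted p without passing the minimum fold. *Orc1* was called lower by DESeq2 (-1.05), by edgeR (-1.04 with TMM factors) and by limma with a pseudocount of 0.1 (-1.01). Of the exon bases of *Orc2*, 29.8% are shared with the opposite gene *Nif3l1*, and whether strand was used in counting is not given in the sources used here.

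The loading factors were among the genes that fell most. CDT1 brings the MCM ring to the origin. *Cdt1* was at 25.0, 31.3, 33.9 and 32.5 FPM in 12w+dox and at 3.54, 2.69, 3.82, 3.01 and 4.03 FPM in 12w-res (-2.99 ± 0.16, adjusted p = 9.78e-09). The 5 restored mice lay close together and far below the mice on dox. *Cdc6*, which encodes the ATPase that closes the loading complex, was at 6.28 to 9.61 FPM in 12w+dox and at 0.319 to 1.12 FPM in 12w-res (-2.85 ± 0.21, adjusted p = 2.85e-07). It had only 7 to 19 reads in the libraries of 12w-res. *Gmnn*, which encodes geminin, the inhibitor of CDT1, fell less, from 9.87 to 19.0 FPM in 12w+dox to 3.12 to 5.53 FPM in 12w-res (-1.57 ± 0.27, adjusted p = 0.000478). All 3 genes had groups without overlap.

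MCM2 to MCM7 form the ring of the replicative helicase, and all 6 genes were called lower without overlap between the groups. *Mcm3* was at 65.4, 79.3, 78.2 and 84.2 FPM in 12w+dox and at 9.62, 7.19, 9.74, 8.97 and 8.29 FPM in 12w-res (-3.06 ± 0.14, adjusted p = 5.63e-09). *Mcm5* was at 45, 56.4, 71.7 and 62.4 FPM in 12w+dox and at 8.32, 6.39, 6.96, 5.14 and 6.96 FPM in 12w-res (-3.03 ± 0.15, adjusted p = 8.84e-09). In both genes the highest restored mouse was far below the lowest mouse on dox. *Mcm6* was at 107, 127, 113 and 128 FPM in 12w+dox and at 15.5, 20.4, 13.6, 12.9 and 18.4 FPM in 12w-res (-2.85 ± 0.19, adjusted p = 1.06e-07). *Mcm6* thus joined *Mcm3* and *Mcm5* in the lower range of the family, whose upstream letters are shown above for *Mcm5* and *Mcm6*.

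The other 3 ring genes fell less. *Mcm7*, *Mcm4* and *Mcm2* changed by -2.08 ± 0.13, -2.01 ± 0.13 and -1.82 ± 0.12. Because 1 subunit of each goes into a ring, the levels were also compared per kilobase of the longest transcript. In 12w+dox, *Mcm2* had the highest mean of the 6 (47.6 FPM per kb) and *Mcm5* the lowest (17.4 FPM per kb). In 12w-res the same genes were highest and lowest, at 13.2 and 2.0 FPM per kb.

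**Figure D2:**
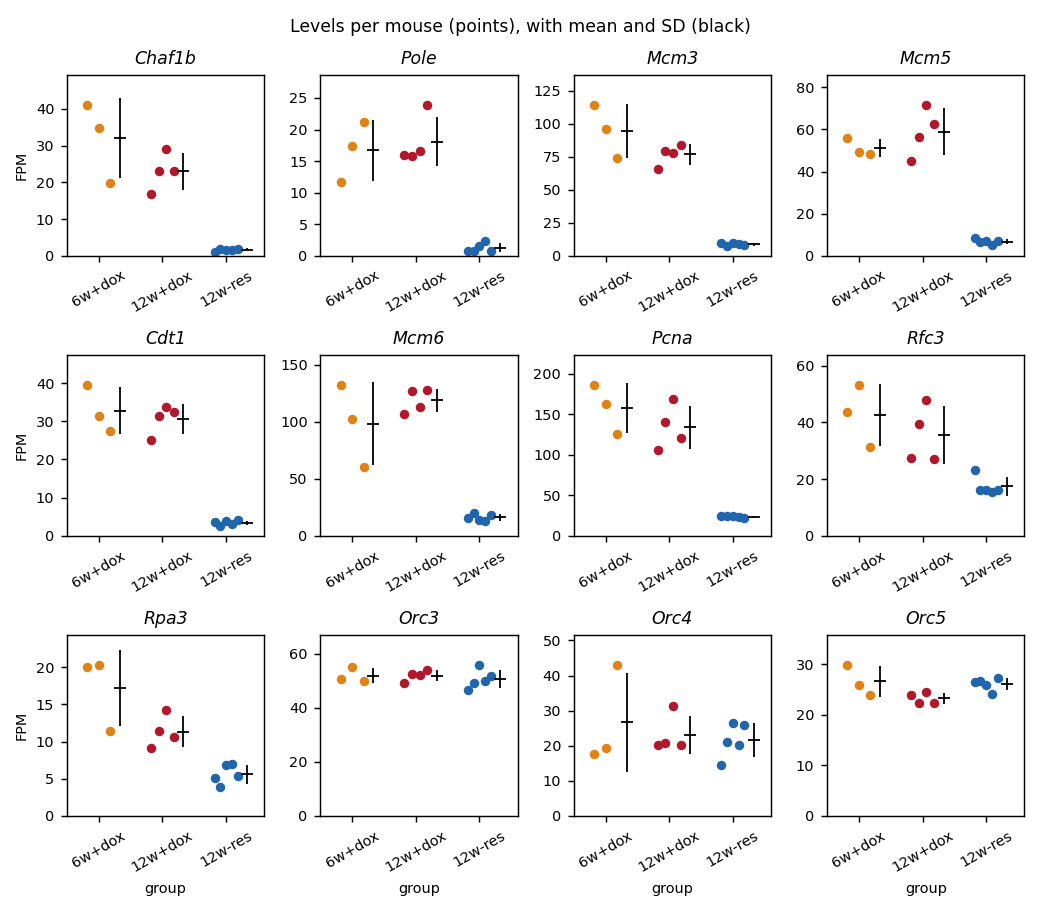
FPM of 12 genes in each mouse of the long-term experiment (points, axis from 0) with the group mean and SD (black). For *Chaf1b*, *Pole*, *Mcm3*, *Mcm5*, *Cdt1*, *Mcm6* and *Pcna* all 5 mice of 12w-res lie far below the 7 mice on dox, for *Rfc3* and *Rpa3* they lie below with a smaller gap, and for *Orc3*, *Orc4* and *Orc5* the groups overlap.

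Helicase activation is the step that starts S phase. Of its 8 genes 6 were called lower, and all 8 passed an adjusted p under 0.05 with groups that did not overlap. *Cdc45*, whose product joins the ring to form the active helicase, changed by -2.55 ± 0.18, and *Mcm10*, which is needed to start unwinding, by -2.49 ± 0.24. *Mcm10* had the fewest reads of any of the 45 genes in 12w-res, down to 5 in 1 library. *Cdc7* and *Dbf4*, the kinase and its activator, changed by -1.51 ± 0.26 and -1.63 ± 0.21. The 4 GINS genes split in pairs: *Gins1* and *Gins2* changed by -2.22 ± 0.30 and -2.53 ± 0.27, and *Gins3* and *Gins4* by -0.67 ± 0.16 and -0.62 ± 0.16. Of the exon bases of *Gins2*, 67.3% are shared with the opposite gene *Gse1*.

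The polymerases and the primase gave the widest range within a role. Polymerase epsilon copies the leading strand. Its catalytic subunit gene *Pole* was at 15.9, 15.9, 16.6 and 23.9 FPM in 12w+dox and at 0.728, 0.740, 1.55, 2.36 and 0.83 FPM in 12w-res (-3.48 ± 0.27, adjusted p = 3.60e-07). The groups were far apart, and the third and the fourth restored mouse were the highest of the 5. *Pole2*, the accessory subunit gene, changed by -1.90 ± 0.23. Polymerase alpha with primase makes the primers, and its genes changed by -2.66 ± 0.19 (*Prim1*), -2.37 ± 0.15 (*Pola1*), -1.82 ± 0.14 (*Pola2*) and -1.55 ± 0.14 (*Prim2*).

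Polymerase delta copies the lagging strand and also works in DNA repair. Its catalytic subunit gene *Pold1* changed by -2.28 ± 0.12 (adjusted p = 9.78e-09), from 34.1 to 44.2 FPM in 12w+dox to 6.52 to 8.78 FPM in 12w-res. The accessory genes *Pold2* and *Pold3* changed by -0.57 ± 0.12 (adjusted p = 0.00225) and -0.79 ± 0.11 (adjusted p = 7.16e-05) and were not called. In 12w-res, *Pold2* had the highest mean of the 45 genes per kilobase of transcript (17.1 FPM per kb), followed by *Orc3* (16.4 FPM per kb). In 12w+dox the highest was *Pcna* (88.1 FPM per kb).

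PCNA is the ring that holds the polymerases on DNA, and its transcript is a common marker of proliferation. *Pcna* was at 106, 140, 168 and 120 FPM in 12w+dox and at 24.0, 24.0, 24.0, 23.0 and 21.8 FPM in 12w-res (-2.47 ± 0.14, adjusted p = 1.86e-08). The restored mice were nearly equal to each other, while the mice on dox were spread. The genome also holds the pseudogenes *Pcna-ps1* and *Pcna-ps2*, and how reads shared with them were counted is not given in the sources used here. RFC loads PCNA onto DNA. Of its genes *Rfc4*, *Rfc5* and *Rfc2* were called lower (-1.60 ± 0.22, -1.54 ± 0.16 and -1.11 ± 0.13). *Rfc1*, the large subunit gene, was not called (-0.72 ± 0.11, adjusted p = 0.000192). *Rfc3* was at 27.3, 39.5, 48.0 and 27.2 FPM in 12w+dox and at 23.3, 16.2, 16.2, 15.4 and 16.3 FPM in 12w-res (-0.97 ± 0.20, adjusted p = 0.00167), just short of the minimum fold. All restored mice were below all mice on dox for *Rfc3*, and the first of them was the nearest.

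RPA covers the single-stranded DNA behind the helicase and serves in repair as well. *Rpa2* was called lower (-1.57 ± 0.13). *Rpa1*, the large subunit gene, changed by -0.70 ± 0.13 (adjusted p = 0.00109) and was not called. *Rpa3* was at 9.18, 11.4, 14.2 and 10.6 FPM in 12w+dox and at 5.04, 3.91, 6.83, 6.97 and 5.36 FPM in 12w-res (-0.96 ± 0.21, adjusted p = 0.00288), and also fell short of the minimum fold. The groups did not overlap for any of the 3 genes.

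*Lig1*, the ligase that joins Okazaki fragments, had the smallest adjusted p of all 45 genes. It was at 63.7, 84.4, 81.6 and 80.3 FPM in 12w+dox and at 12.9, 12.4, 12.6, 13.5 and 12.8 FPM in 12w-res (-2.54 ± 0.11, adjusted p = 4.25e-09). The restored mice again lay close together, all below the mice on dox. *Fen1*, the flap nuclease that acts before the ligase, changed by -1.21 ± 0.14, and 84.2% of its exon bases are shared with opposite genes. Chromatin assembly factor 1 places histones on new DNA. *Chaf1b* was at 16.9, 23.1, 29.1 and 23.1 FPM in 12w+dox and at 0.884, 1.95, 1.68, 1.59 and 1.88 FPM in 12w-res (-3.49 ± 0.24, adjusted p = 9.28e-08), the largest difference of the 45 by limma. No restored mouse came near the mice on dox. The value of *Pole* was nearly equal (-3.48), and at such low levels the added 0.5 FPM weighs on the order of the 2 genes. *Chaf1a*, which encodes the large subunit, changed by -2.53 ± 0.16, with 52.5% of its exon bases shared with the opposite gene *Ubxn6*.

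**Figure D3:**
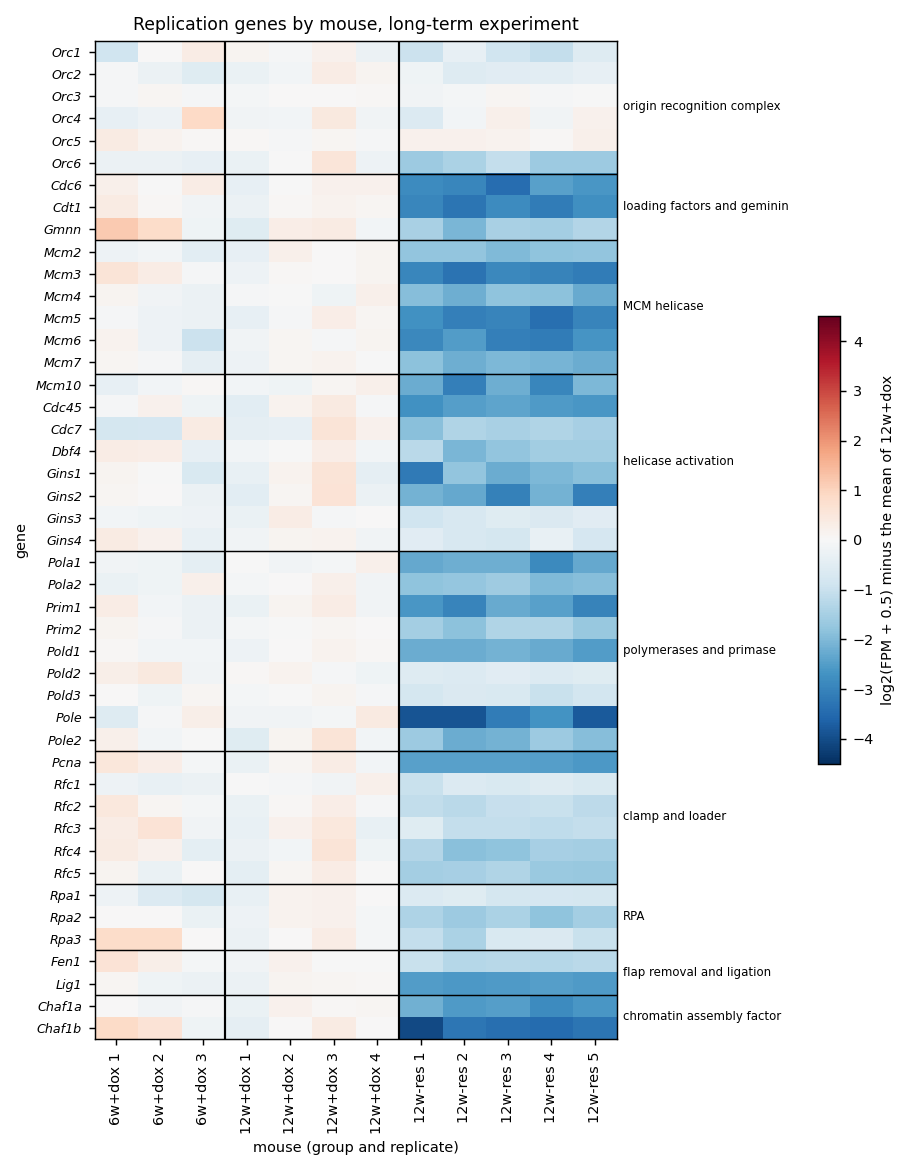
Heatmap of log2(FPM + 0.5) minus the 12w+dox mean for 45 genes (rows, by role) in the 12 mice of the long-term experiment (columns). The 5 columns of 12w-res are blue in most rows and palest in rows *Orc2* to *Orc5*, and the 7 columns of mice on dox are closer to white.

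The difference was of similar size in all restored mice. The mean log2 level over the 45 genes was 2.99 to 3.10 in the 5 mice of 12w-res (SD 0.037) and 4.54 to 5.00 in the 4 mice of 12w+dox (SD 0.187). Markers of cell types were read in the same comparison. All 4 transcripts of dividing cells (*Mki67*, *Top2a*, *Cdk1* and *Ccnb1*) were called lower, and their summed level was 248 to 359 FPM in 12w+dox and 19.0 to 26.1 FPM in 12w-res. *Pomc*, *Pcsk1*, *Pcsk2*, *Tbx19* and *Pax7*, which mark melanotrophs and corticotrophs, had a sum of 96002 to 198293 FPM in 12w+dox and of 458751 to 581045 FPM in 12w-res, most of it *Pomc*. *Pomc* was at 93231 to 194592 FPM in 12w+dox and at 452682 to 573321 FPM in 12w-res. It did not pass by limma (adjusted p = 0.663), but the groups did not overlap, so this p does not mean equal levels. Of the 5 markers, 2 were called higher (*Pcsk1* and *Pcsk2*), while *Tbx19* and *Pax7* lay below 0, and *Pax7* had an adjusted p of 0.0453. *Prl*, of lactotrophs, was called higher (4.06, adjusted p = 0.00061), as were *Gh* (2.31), 1 of 2 somatotroph markers, and *Sox9* (1.14), 1 of 3 stem cell markers, while none of the 4 gonadotroph markers passed. The fibroblast markers *Col1a1*, *Col1a2*, *Dcn* and *Lum* were all called higher (54.7 to 234.9 FPM against 376 to 907 FPM), 3 of the 4 endothelial markers were called higher (50.5 to 109 FPM against 160 to 228 FPM), and the 5 macrophage markers were higher without passing the minimum fold (76.2 to 102 FPM against 120 to 172 FPM). The part of these markers in the result was not tested.

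Sex did not separate the groups here, because 12w+dox and 12w-res held both. By limma, the difference between males and females in 12w-res against 12w+dox passed an adjusted p under 0.05 in 0 of the 45 genes. Of all 15315 genes, 13 passed (0.0849%). At an unadjusted p under 0.05, 2 of the 45 passed (*Cdc7* and *Orc4*), against 4.27% of all genes. *Cdc7* was lower by -1.06 in females and -2.0 in males, a difference between the sexes with an adjusted p of 0.999 by limma. With females only, 31 of the 45 genes were called lower: *Cdc7* and *Rfc2* lost the call, and *Rfc3* gained it (-1.02, adjusted p = 0.0175).

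Comparing 12w-res with 6w+dox asks whether the tumors returned below the state from which dox was removed. This comparison shares the 12w-res mice with the one above, and 6w+dox held only females. Of the 45 genes 34 (75.6%) were called lower and 0 higher by limma and likewise by DESeq2 and by edgeR, where 5.82% of all genes were called lower and 5.81% higher. At an unadjusted p under 0.05, 0 were higher, against 21.8% of all genes. The median was -1.72, against -0.021 over all genes. At an adjusted p under 0.05, 39 were lower, against 16.8% of all genes, and in 39 the groups did not overlap, against 15.9% of all genes. All 4 transcripts of dividing cells were called lower here too (271 to 393 FPM in 6w+dox), as were the 2 somatotroph markers *Gh* and *Ghrhr* and the thyrotroph marker *Tshb*. Of the 5 melanotroph and corticotroph markers 2 were called higher (*Pcsk1* and *Pcsk2*), and 1 was lower at an adjusted p under 0.05 by limma. Of the 4 fibroblast markers 1 was called higher (*Col1a1*), and 1 lay below 0. The part of these markers in the result was not tested.

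By limma, *Rfc3* and *Rpa3* were called here and fell just short of the minimum fold against 12w+dox. There, DESeq2 (-1.02 and -1.01) and edgeR called both lower. *Rfc3* was at 43.5, 53.2 and 31.2 FPM in 6w+dox, above all 5 restored mice (-1.24 ± 0.21, adjusted p = 0.000599). *Rpa3* was at 20.03, 20.3 and 11.4 FPM in 6w+dox, again above all restored mice (-1.52 ± 0.23, adjusted p = 0.000222). The values in 6w+dox were spread for both genes, with the third mouse lowest. *Chaf1b* had the largest difference here too (-3.92 ± 0.26, adjusted p = 9.62e-08), from 41.1, 34.8 and 19.9 FPM in 6w+dox. *Rpa1* did not differ detectably (-0.16 ± 0.14, adjusted p = 0.420), nor did *Orc1*, *Orc2*, *Orc3*, *Orc4* and *Orc5* (adjusted p from 0.102 to 0.889).

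Comparing 12w+dox with 6w+dox asks how the genes moved while RB stayed low. None of the 45 was called in either direction by limma, DESeq2 or edgeR, where 4.04% of all genes were called lower and 3.15% higher, and the median was 0.055, with a range from -0.0095 to 0.14 with single mice left out. At an unadjusted p under 0.05, 1 gene was lower (*Rpa3*) and 2 were higher (*Rpa1* and *Rfc1*), against 19.3% and 17.1% of all genes. *Rpa1* was the only one with an adjusted p under 0.05, where 10.4% of all genes were higher. It was at 81.9, 63.2 and 55.6 FPM in 6w+dox and at 75.6, 106, 109 and 96.7 FPM in 12w+dox (0.54 ± 0.15, adjusted p = 0.0221). The lowest mouse of 12w+dox was below the highest of 6w+dox. *Pcna*, at 186, 162 and 125 FPM in 6w+dox, overlapped with 12w+dox (-0.24 ± 0.16, adjusted p = 0.288). *Gmnn* had the largest difference that was not called (-0.61 ± 0.30, adjusted p = 0.161). It was at 34.2, 26.2 and 12.9 FPM in 6w+dox, so that the third mouse lay within the range of 12w+dox. Without that mouse *Gmnn* was called lower (-1.01, adjusted p = 0.0115) and was the 1 gene called.

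Because genes of 1 complex fell by different amounts, ratios between partner genes were compared within each mouse. The 7 pairs were picked for their difference after the values had been seen, so the ratios are a description and were not tested. The ranges given are plain ratios of FPM, which within a mouse do not depend on library scaling. The changes on the log2 scale were taken after 0.5 FPM was added to each gene. For genes at low FPM, scaling and transcript length therefore do not fully cancel in the change, which differs from that of the plain ratios. The ratio of *Cdt1* to its inhibitor *Gmnn* was 1.73 to 2.53 in 12w+dox and 0.637 to 0.864 in 12w-res, a change of -1.42 ± 0.15 (SE) on the log2 scale. FPM is not scaled by transcript length, and the longest transcripts have 2696 bases for *Cdt1* and 1127 bases for *Gmnn*. A ratio above or below 1 therefore does not say which gene had more transcripts. In 6w+dox the ratio was 1.15 to 2.13.

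In the other 6 pairs as well, every ratio of 12w-res was below every ratio of 12w+dox. The change of the log2 ratio was -1.44 ± 0.20 for *Orc6* to *Orc3*, -1.24 ± 0.12 for *Mcm3* to *Mcm2* and -0.87 ± 0.10 for *Rpa2* to *Rpa1*. It was -1.86 ± 0.36 for *Gins2* to *Gins3* and -1.71 ± 0.15 for *Pold1* to *Pold2*. For *Chaf1b* to *Chaf1a* it was -0.96 ± 0.26, with the lowest ratio, 0.227, in the first restored mouse and 0.711 in the highest.

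**Figure D4:**
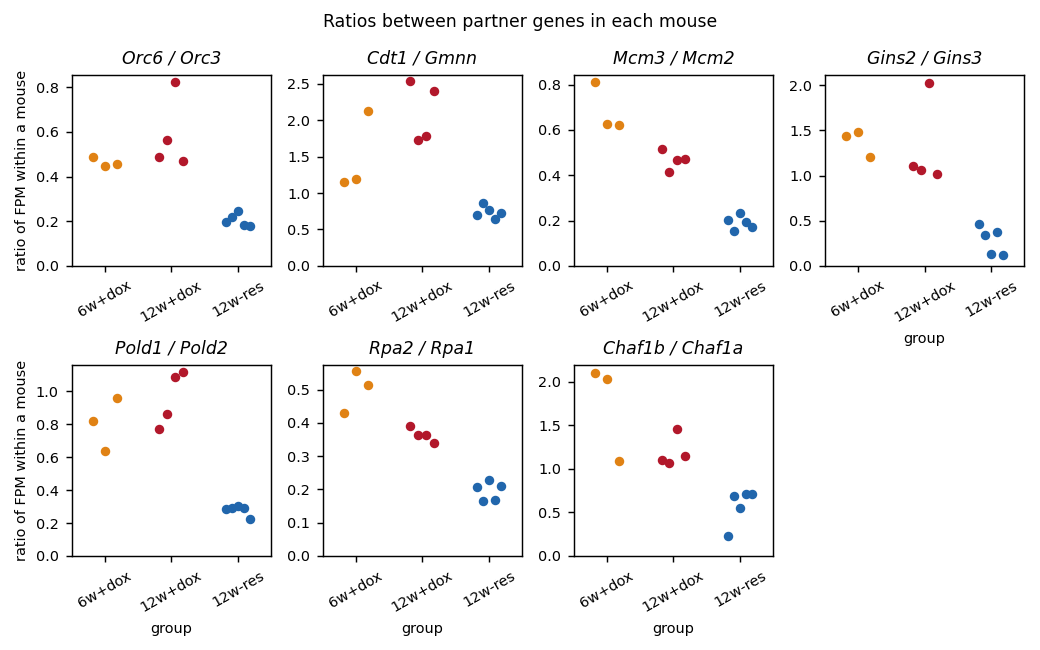
Ratio of FPM between partner genes within each mouse (points, axis from 0) for 7 pairs in 6w+dox, 12w+dox and 12w-res. In each panel the 5 mice of 12w-res lie below the 4 mice of 12w+dox, for *Cdt1* to *Gmnn* at 0.637 to 0.864 against 1.73 to 2.53.

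The E2F letters were found both in genes called lower and in genes that were not called. They were in the window of 10 of 25 genes called lower in 12w-res against 12w+dox and of 5 of 12 that were not called (*Orc1*, *Orc3*, *Gins3*, *Pold3* and *Rfc3*). Not called does not mean unchanged. *Orc1* (-0.78), *Gins3* (-0.67), *Pold3* (-0.79) and *Rfc3* (-0.97) were lower at an adjusted p under 0.05 by limma, and *Orc3* (-0.04) did not pass. The median log2 fold change was -2.28 over the 15 genes with the letters and -1.56 over the 22 without. *Pcna*, *Chaf1b* and *Mcm2* were among the genes that fell and had no match in these windows.

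A further 40 genes of DNA replication were read from a list that is separate from the 45. Of these, 21 were called lower in 12w-res against 12w+dox and 0 higher, against 5.04% and 6.24% of all genes. At an adjusted p under 0.05, 32 were lower and 0 higher, against 18.3% and 19.4% of all genes, and the median was -1.16. *Top2a* (topoisomerase II alpha, -3.98 ± 0.15), *Clspn* (claspin, a checkpoint mediator at the fork, -3.77 ± 0.20) and *Uhrf1* (which guides maintenance methylation of DNA, -3.67 ± 0.15) had the largest differences. *Top1* (0.13 ± 0.13), *Cdc25a* (-0.01 ± 0.11) and *Rnaseh2c* (0.26 ± 0.20) were among the 8 that did not pass. *Pold4*, the small subunit gene of polymerase delta, was at 0.64 ± 0.26 (adjusted p = 0.0715). Against 6w+dox, 20 of the 40 were called lower and 0 higher, where 5.82% and 5.81% of all genes were called.

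The short-term experiment asks how early the genes move. Its groups are compared with the same 3 mice of 16w+dox, and all of them were male, as in 3d-dox, while 1d-dox and 5d-dox were female, so that sex and time cannot be told apart at 1 and 5 days. No gene of the 44 was called in either direction at any time by limma, DESeq2 or edgeR. Of all genes, 0.0358% were called lower and 0.00716% higher at 1 day, 0.0502% and 0.0788% at 3 days and 0.107% and 0.086% at 5 days. At 1 day 14 of the 44 (31.8%) were higher at an unadjusted p under 0.05 and 0 lower, against 6.78% and 6.28% of all genes, and 39 of the 44 lay above 0, against 49.5% of all genes. The median was 0.23. At 3 days, the time with males in both groups, 6 of 44 (13.6%) were higher and 0 lower at an unadjusted p under 0.05, against 7.95% and 8.7% of all genes, and the median was 0.11. At 5 days 4 of 44 (9.09%) were higher and 0 lower, against 7.2% and 6.33% of all genes, and the median was 0.12. Without the second mouse of 16w+dox the median was 0.17 at 1 day, 0.059 at 3 days and 0.060 at 5 days.

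*Mcm7*, *Orc1* and *Rpa3* had the smallest unadjusted p. *Mcm7* was at 21.0, 20.4 and 19.96 FPM in 16w+dox and at 26.6, 27.3, 26.3 and 22.0 FPM in 1d-dox, a difference of 0.31 ± 0.08 (adjusted p = 0.124). All 4 mice of 1d-dox were above the dox-treated mice, the fourth by little. The adjusted p was 0.0246 by DESeq2, and 0.04999 by limma without the fourth mouse, in both cases below the minimum fold. *Orc1* was at 0.15, 0.187 and 0.408 FPM in 16w+dox and at 0.565, 0.469 and 0.741 FPM in 3d-dox (0.55 ± 0.16, adjusted p = 0.126), with groups that did not overlap and down to 6 reads in 1 library of 16w+dox. *Rpa3* was at 2.0, 1.47 and 1.76 FPM in 16w+dox and at 2.94, 2.93, 2.79 and 2.03 FPM in 1d-dox (0.50 ± 0.15, adjusted p = 0.183), where the fourth mouse was close to the dox-treated ones.

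Genes that fell strongly after 6 weeks without dox were not detectably lower after 5 days. *Mcm3* was at 29.8, 24.4 and 27.5 FPM in 16w+dox, and at 28.5, 36.4 and 35.8 FPM in 5d-dox (0.30 ± 0.15, adjusted p = 0.394). *Pcna* was at 27.2, 20.2 and 26.6 FPM in 16w+dox and at 27.4, 27.0 and 31.2 FPM in 5d-dox (0.21 ± 0.14, adjusted p = 0.523). In both genes 2 of the 3 mice of 5d-dox were above all dox-treated mice. *Chaf1b* was at 2.57, 2.11 and 2.02 FPM in 16w+dox and at 2.80, 2.31 and 2.03 FPM in 5d-dox (0.07 ± 0.18, adjusted p = 0.911). The experiments were scaled apart and prepared from different RNA fractions, so no level is compared between them. Of the 4 gonadotroph markers, 1 (*Lhb*) was called lower at 1 day and at 5 days and called higher at 3 days (adjusted p = 0.0476), and all 4 had the same sign as *Lhb* at each time. Their sum was 12.7 to 33.5 FPM in 16w+dox, 0.825 to 2.48 FPM in 1d-dox, 28.9 to 92.3 FPM in 3d-dox and 0.883 to 2.19 FPM in 5d-dox. Of the 4 endothelial markers, 1 (*Cdh5*) was called lower at 1 day and at 5 days and none passed at 3 days, and none of the 4 fibroblast markers passed an adjusted p under 0.05 at any time. The part of these markers in the result was not tested.

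**Figure D5:**
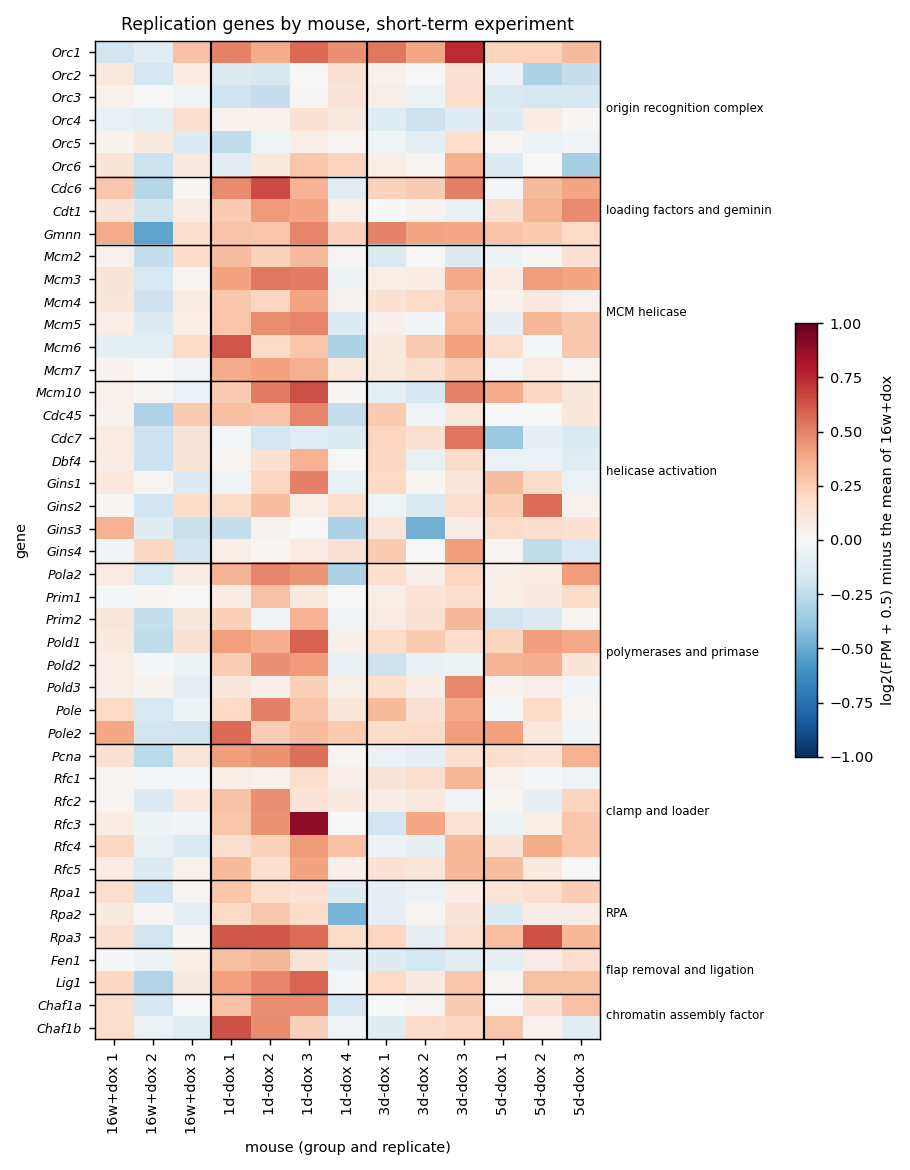
Heatmap of log2(FPM + 0.5) minus the 16w+dox mean for 44 genes (rows, by role) in the 13 mice of the short-term experiment (columns), on a colour scale from -1 to 1. The first 3 mice of 1d-dox are mostly red, and the fourth is nearer to the dox-treated mice.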

How the data were processed

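Reads had been mapped by the authors to mm10 with STAR and counted on RefSeq genes, and a gene was kept if over 50% of the mice of one condition had 10 reads or more. The deposited signal is FPM, scaled by DESeq2 size factors. The long-term libraries were poly(A)-selected and the short-term libraries depleted of ribosomal RNA, so each experiment was fitted alone. All 183780 long-term values and all 182143 short-term values were whole multiples of 1 read (within 0.1 read). The short-term table has 4 lines without a gene, which held 68.8% to 75.0% of a library and stayed out. The design had been written for counts. As the values are scaled, log2(FPM + 0.5) was tested with limma 3.58.1 (R 4.3.3) with a trended variance, all groups of an experiment in one fit and Benjamini-Hochberg adjustment over all genes. DESeq2 1.42.0 and edgeR 4.0.16 on the recovered reads were alternatives, beside other scalings, pseudocounts of 0.1 and 1, filters, a replicate block, sex, and each mouse left out. The fits were tested on simulated data.

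The 45 genes, the roles, the marker lists and the list of 40 further genes were chosen with earlier results of these data known. All 45 could be named, and values in every mouse are given for the 6 largest and 3 smallest differences in 12w-res against 12w+dox, *Pcna* and *Mcm3*, genes called in only 1 comparison, and the 3 smallest short-term p. Other genes shown in every mouse were chosen after their values were seen. Nothing in the labels names a batch. Replicates of a group differed by more than sampling noise in all 34 pairs. Promoter windows came from RefSeq (37 of 45 genes matched), coordinates and transcript lengths from GENCODE vM21.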

Additional observations from a re-analysis of the deposited data

Results flagged for a closer look

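In 134 groups of 4 or 5 mice, 10 values stood away from the rest of their group by more than a 95% limit for a single outlying value, where chance gives about 1 in 20 groups. In 12w+dox, the third mouse had 31.3 FPM of *Orc4* (others 20.1 to 20.8) and 14.8 FPM of *Rfc4* (others 8.06 to 9.09), and the fourth had 23.9 FPM of *Pole* (others 15.9 to 16.6). In 12w-res, the first mouse had 23.3 FPM of *Rfc3* (others 15.4 to 16.3) and 19.2 FPM of *Fen1* (others 15.9 to 16.7), the third had 41.6 FPM of *Mcm2* (others 46.5 to 48.2) and the fourth had 4.13 FPM of *Pola1* (others 6.40 to 6.87). In 1d-dox, the third mouse had 33.0 FPM of *Rfc1* (others 30.02 to 30.3), and the fourth had 4.28 FPM of *Rpa2* (others 6.98 to 7.42) and 2.03 FPM of *Rpa3* (others 2.79 to 2.94).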

How the results depend on the processing

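Of 1333 values of single genes under alternatives, 1296 kept direction and call, 30 gained a call, 2 lost it and 5 changed sign. In 12w-res against 12w+dox, 30 of the 32 calls held in every alternative in which the gene was tested and 32 with each mouse left out. With 10 reads required in every library, 43 genes were tested and 30 called, and *Cdc6* and *Mcm10* were left out. *Cdc7* (-1.06) and *Rfc2* (-0.96) lost theirs with females only. The signs that changed were those of *Orc3* (0.042 with females only), *Orc4* (0.23 with females only, -0.18 to 0.054 with single mice left out, above 0 without the third 12w+dox or the first 12w-res mouse) and *Orc5* (-0.49 with totals). The median over the 45 genes in 12w-res against 12w+dox was -1.79 with DESeq2, -1.78 with edgeR and TMM factors, -1.79 with edgeR and RLE factors, -2.23 with totals and -1.86 with males only. Against 6w+dox it was -2.0 with totals, -1.59 with a pseudocount of 1 and -1.59 to -1.87 with single mice left out. In 12w+dox against 6w+dox it was 0.38 with totals and -0.0095 to 0.14 with single mice left out (below 0 without the third mouse of either group), 0 to 1 genes were called with single mice left out, and 1 without a minimum fold. In 3d-dox against 16w+dox it was 0.25 with totals and 0.059 to 0.18 with single mice left out, and in 5d-dox against 16w+dox 0.048 and 0.060 to 0.16. Totals moved the median of all genes by construction, to -0.61, -0.33, 0.29, 0.14 and -0.070 in these comparisons, in the order given. For the rest the cause was not tested.

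The replicate numbers name samples and did not pair them: deviations of same-numbered mice correlated at -0.17 to 0.24 in the long-term and -0.21 to 0.17 in the short-term experiment. With the number as a block, 32 and 34 genes were called lower in 12w-res against 12w+dox and against 6w+dox, and 0 in the other comparisons, as without it. Sex as a covariate could not be fitted in the short-term experiment, where each group has 1 sex. Depth limits *Orc1*, *Mcm10* and *Cdc6* most, with down to 5 reads in a library, and with 3 mice against 3 an exact permutation test cannot go below 0.1.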

Other observations

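In 12w+dox the mice did not rank alike for replication genes and for *Mki67*, the usual proliferation marker. The third mouse had the highest mean log2 level over the 45 genes (5.00) of its group and the lowest *Mki67* (75.2 FPM, against 108 to 148 FPM in the other 3). The first mouse had the lowest mean level (4.54) with 109 FPM of *Mki67*. In 6w+dox, 16w+dox, 1d-dox and 3d-dox the mice ranked alike on both measures, and in 12w-res and 5d-dox they did not.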
